A study of Sus scrofa with 12 samples.

Results

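Liver RNA of 6 pigs with a high stress response was compared with liver RNA of 6 pigs with a low stress response, across all genes and animal by animal. Every one of the 12 arrays of the series entered this comparison, so 12 of 12 were used. All animals were adult German Landrace pigs, and each gave 1 liver sample on 1 Affymetrix porcine array. Within each stress response group 3 animals were labelled with low and 3 with high aggressiveness, and each of these sets held 1 female and 2 males. Aggressiveness and sex were therefore balanced over the comparison, and the model held a term for each. How an animal was scored as a high or low responder is not in the labels, nor when the livers were taken relative to any stressor, or whether animals shared a litter or pen. If animals shared a source, p-values measured only the spread between these samples. Animals are named by stress response group and by a number given in the order of deposition, which pairs nothing. In both groups animals 1 and 6 were females and animals 2 to 5 were males, and animals 2, 3 and 6 carried the label of high aggressiveness.

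The liver makes most proteins of the blood plasma, and these are folded and glycosylated in the endoplasmic reticulum (ER) before they leave the cell. When folding demand exceeds capacity, the unfolded protein response raises the transcription of ER chaperones and of parts of the export route. The liver also makes bile acids and lipids, clears drugs through cytochromes P450, and receives stress signals through glucocorticoid and catecholamine receptors. Acute phase proteins such as C-reactive protein are released by hepatocytes under inflammatory cytokines.

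Defining transcripts of hepatocytes were abundant on every array: ALB, which encodes albumin, had signals of 35648 to 61125 in the low group and 41598 to 52631 in the high group. The 10 most abundant named genes, which included APOA1, ALB, HP and FTH1, had log2 fold changes of -0.02 to 0.11 between the groups. These values near 0 average over the sexes: with a stress response by sex term in the model, added after the data were seen, all 10 lay above 0 in males (0.08 to 0.26) and below 0 in females (-0.36 to -0.06). FGG, one of the 10, had a second, dimmer probe set with means of 10440 in the low and 18784 in the high group (0.89 ± 0.46, SE). Averaging the FGG probe sets gave 0.50. Further probe sets had -0.04 for OAZ1, 0.10 for FTL and -0.14 to 0.35 for EF1ALPHA, all among the 10. The highest signal on any array was 66150, and whether differences are compressed near it was not tested. Array signals are linear intensities without a unit, so levels are compared between animals for the same probe set only. The EIF1AY signal of 418 to 666 in the 8 males and 1.80 to 11.0 in the 4 females fitted the sex labels. Correlations of log2 signals between arrays were 0.945 to 0.975, and high 6, high 5 and low 6 had the lowest medians (0.953, 0.957 and 0.957). As a sign of RNA quality, the 3' over 5' signal of control transcripts averaged 2.25 ± 0.09 log2 units (SD, n = 6) in low and 2.22 ± 0.14 (SD, n = 6) in high responders (exact permutation test, two-sided, p = 0.630, adjusted p = 0.714 over 4 ratios). In bulk tissue, fewer cells of a type and less RNA per cell cannot be told apart.

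No single gene separated the groups strongly enough to pass over the whole array. In the limma model, 0 of 15999 probe sets tested (0.00%) had a Benjamini-Hochberg adjusted p under 0.05, and the smallest adjusted p was 0.339. An unadjusted p under 0.05 was found for 1305 probe sets. At an unadjusted p under 0.01, used here as a description, 199 probe sets (1.24%) were higher and 107 (0.669%) lower at high stress response. Higher signals thus made up 65.0% of these probe sets. That split depended on the scaling of the arrays: after centring on the median 118 were higher and 144 lower (45.0% higher), and after quantile normalization 159 were higher and 123 lower (56.4% higher). Median centring shifted the median log2 fold change of all probe sets by -0.04. Among the 5810 genes with a symbol, each represented by 1 probe set, 82 (1.41%) were higher and 50 (0.861%) lower at an unadjusted p under 0.01. Log2 fold changes were above 0 for 3209 of these genes (55.2%), with a median of 0.02.

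A count that no single array can make is the number of probe sets in which all 6 animals of a group lay above all 6 of the other. This held for 62 probe sets higher at high stress response (0.388%) and for 24 lower (0.150%), and 42 and 14 of them also had an unadjusted p under 0.01. Median centring changed these counts to 33 higher and 38 lower, and 22 and 15 of them were probe sets of the first count. With quantile normalization 64 were higher and 30 lower, of which 41 and 20 were shared with the first count. Among genes, 37 (0.637%) were higher and 8 (0.138%) lower without overlap. A second probe set existed for some of these genes, 18 probe sets in all, of which 15 had the same sign and 0 separated the groups without overlap.

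**Figure D1:**
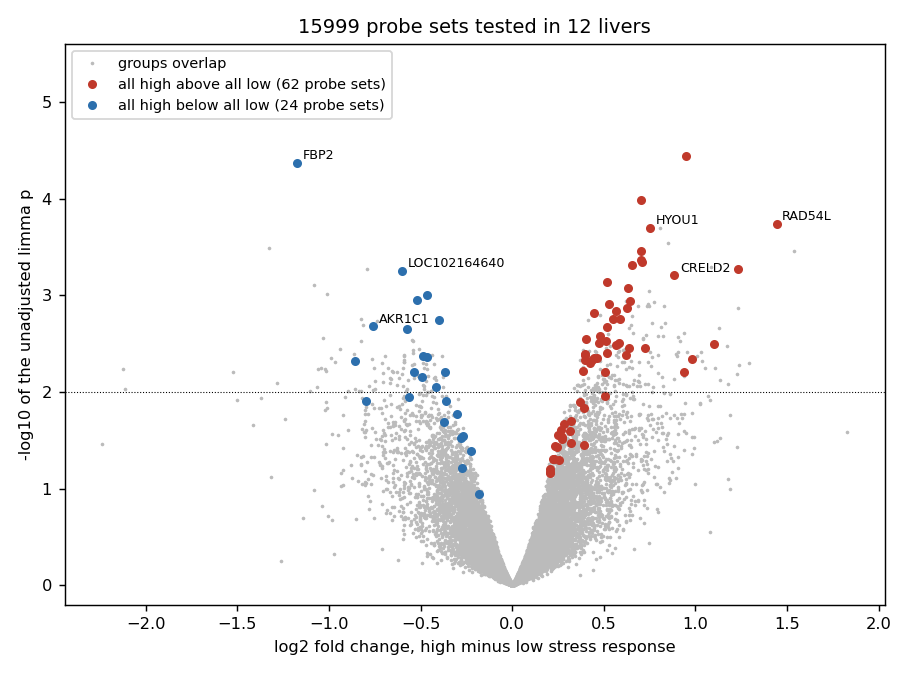
Each point is 1 of the 15999 probe sets tested in 12 livers, with the log2 fold change of high over low stress response on the horizontal axis and -log10 of the unadjusted limma p on the vertical axis. The dotted line marks 2 on the vertical axis. Red points (62 probe sets) have all high animals above all low animals and blue points (24) the reverse, and most but not all of them lie above the line.

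Of the 37 genes that separated the animals completely with higher signals at high stress response, the 15 with the largest differences are described here. RAD54L, a DNA repair gene, had the largest. Among the others, CRELD2, HYOU1, MANF and SDF2L1 are folding factors or stress-induced proteins of the ER lumen, and LRRC59, SRPRB and SLC35B1 lie in the ER membrane. All 15 had adjusted p-values of 0.522 to 0.523, so none passed. They were picked by their separation, which is therefore a description and not a test.

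CRELD2, an ER protein that is induced when unfolded proteins accumulate, had signals of 973 to 1495 in the low group (median 1208) and of 1720 to 3535 in the high group (median 1878). The log2 fold change was 0.89 ± 0.19 (SE, n = 6 and 6). Both females of the high group, with 3202 and 3535, stood above the 4 males of that group, which lay at 1720 to 1896.

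HYOU1, an ER chaperone and exchange factor for the chaperone BiP, ran from 1434 to 2136 in the low group (median 1644) and from 2332 to 4284 in the high group (median 2671), a log2 fold change of 0.75 ± 0.14 (SE). Signals of MANF, a secreted protein that is retained in the ER and induced by ER stress, were 6308 to 7831 in the low group (median 6804) and 8940 to 16523 in the high group (median 10194). Its log2 fold change was 0.70 ± 0.14 (SE). The highest animals were again high 1 and high 6, both female, with 14442 and 16523 for MANF. SDF2L1, part of an ER chaperone complex, was 1878 to 3309 (median 2860) at low and 3474 to 5463 (median 4131) at high stress response, and the closest animals of the groups were 3309 and 3474.

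LRRC59, a ribosome-binding protein of the ER membrane, was at 1645 to 2359 in the low group (median 2203) and 2485 to 4578 in the high group (median 3293). NANS, the synthase of sialic acid phosphate, was at 1631 to 1996 (median 1839) and 2187 to 4082 (median 2704). For SRPRB, the membrane anchor subunit of the signal recognition particle receptor, 5 of the high animals lay at 1533 to 1733 and high 6 at 3035, against 831 to 1393 in the low group. SEC23B, a coat protein of vesicles that leave the ER, had 1175 to 1387 in the low and 1425 to 3140 in the high group. SLC35B1, an exchanger that brings ATP into the ER, had 1810 to 2392 and 2528 to 4734.

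The other genes of the 15 act in the nucleus, in translation or in mitochondria. RAD54L, a motor protein of recombinational DNA repair, had a log2 fold change of 1.44 ± 0.27 (SE). Its signals were 14.4 to 67.9 in the low group and 75.5 to 135 in the high group. The low group's mean of 30.6 lay below the lowest mean signal of the probe sets tested, 40.6, and with 64 in place of 16 as the added constant the difference was 0.83. EIF4A1, the helicase of translation initiation, ran from 3358 to 5501 at low and from 5784 to 8378 at high stress response. NAT10, an RNA acetyltransferase of the nucleolus, was separated by a narrow margin, with 158 as the highest low and 159 as the lowest high animal. For GRWD1, a ribosome assembly factor, the groups were 270 to 352 and 425 to 543, and for FEN1, a nuclease of DNA replication, 323 to 384 and 421 to 682. A second, dimmer FEN1 probe set overlapped and had 0.37 ± 0.28 (SE). CYB5B, a cytochrome b5 of the outer mitochondrial membrane, was at 509 to 713 and 776 to 1181.

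Only 8 named genes separated the groups with lower signals at high stress response. FBP2, the fructose-bisphosphatase known from muscle, had the smallest adjusted p of any named gene (0.339), with signals of 308 to 421 in the low group (median 352) and 103 to 259 in the high group (median 149). Its log2 fold change was -1.17 ± 0.18 (SE, n = 6 and 6). Without high 4, the high animal nearest to the low group, it was -1.34 with an adjusted p of 0.0121. That animal narrowed the gap, and over the 12 single omissions the adjusted p ran from 0.0121 to 0.796. AKR1C1, an aldo-keto reductase of steroids, was at 252 to 326 in the low and 101 to 239 in the high group (log2 fold change -0.76 ± 0.19, SE). TMEM14A, a mitochondrial membrane protein, was at 710 to 1135 and 504 to 615, and MARVELD3, a tight junction protein, at 661 to 890 and 489 to 631. A second MARVELD3 probe set, with means of 561 in the low and 498 in the high group, overlapped and had -0.18 ± 0.14 (SE).

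The locus LOC102164640 had signals of 2168 to 2585 in the low and 1296 to 2006 in the high group. FANCL (299 to 350 and 201 to 270), ZDHHC3 (1144 to 1178 and 736 to 1114) and ITM2B (16676 to 18928 and 13250 to 16624) had log2 fold changes of -0.30, -0.28 and -0.18. Relative to the signal, the margin between the groups was small for ZDHHC3 and most of all for ITM2B, with 16624 as the highest high and 16676 as the lowest low animal. Margins were also small for AKR1C1 (239 and 252) and MARVELD3 (631 and 661). A second ZDHHC3 probe set had -0.02 ± 0.19 (SE).

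**Figure D2:**
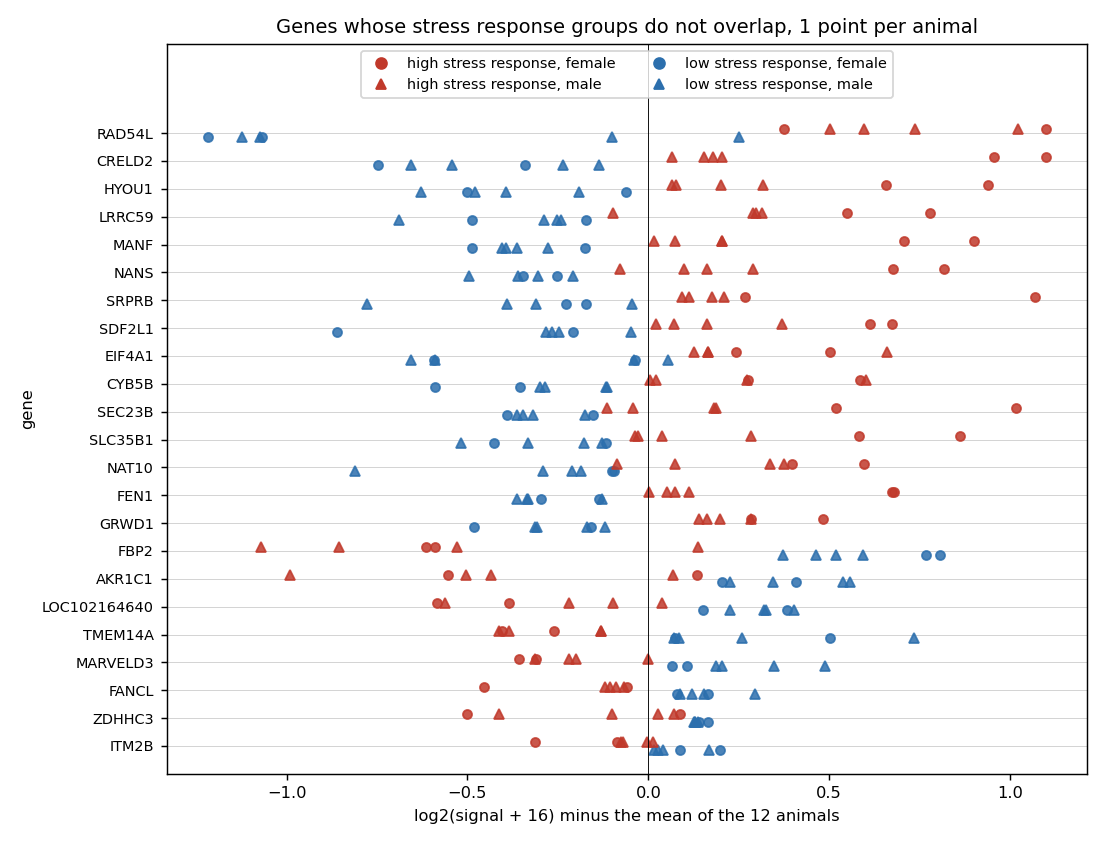
Each row is a gene whose 2 stress response groups do not overlap (15 higher, then 8 lower at high stress response), and each point is 1 animal, as log2(signal + 16) minus the mean of the 12 animals. Red is high and blue is low stress response, circles are females and triangles males; in most of the first 12 rows both red circles lie to the right.

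Whether the groups of these 23 genes stayed separate depended on the scaling. After quantile normalization 21 of 23 remained without overlap, the exceptions being NAT10 and ITM2B. After median centring 12 of 23 remained, among them CRELD2, MANF, LRRC59, NANS, SEC23B, RAD54L, GRWD1, FBP2 and AKR1C1, while HYOU1, SRPRB, SDF2L1, EIF4A1, CYB5B, SLC35B1, NAT10, FEN1, LOC102164640, ZDHHC3 and ITM2B overlapped. Each of the 23 kept its direction under every alternative that was run, which their separation in all 12 animals largely fixed in advance.

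Gene lists and their members were chosen with earlier results of these data known, so the counts below are descriptions and not tests. The lists described were also picked after their medians were seen. The list of ER chaperones and unfolded protein response genes had 20 measured members, of which 18 had a log2 fold change above 0 and 2 below. The list's median was 0.33, beside 0.02 over all genes. At an unadjusted p under 0.01, 7 of 20 were higher and 0 lower, beside 1.41% and 0.861% of all genes. Besides HYOU1, MANF, CRELD2 and SDF2L1, these were HSPA5 (0.41 ± 0.12, SE), which encodes BiP, the central ER chaperone, and its partners DNAJB11 (0.47 ± 0.13) and DNAJC3 (0.38 ± 0.11). Without overlap were 5 of 20 higher and 0 lower, beside 0.637% and 0.138% of all genes. A positive difference in all 4 combinations of aggressiveness and sex was found for 16 of 20. Of all genes 12.0% were positive and 9.04% negative in all 4. The members below 0 were PPP1R15A, a phosphatase subunit that restores translation (-0.51 ± 0.35, SE), and ERO1A, an oxidase of disulfide bond formation (-0.28 ± 0.38). XBP1, a transcription factor of the response, had 0.11 ± 0.11 (SE).

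A score for each animal was formed as the mean over the members of the deviation from the mean of the 12 animals on the log2 scale. For the ER chaperones the 6 low animals lay between -0.20 and -0.11. The high animals lay between -0.06 and 0.50, and no overlap occurred. Within the high group the scores were spread: high 6 had 0.50, high 1 had 0.29, high 2 and high 5 had 0.13 and 0.12, and high 4 and high 3 had -0.01 and -0.06. Leaving out any single animal kept the list's median between 0.30 and 0.37.

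ER translocation and glycosylation, a list of signal recognition, translocon and sugar transfer genes, had 35 of 40 members above 0 and a median of 0.18. At an unadjusted p under 0.01, 5 of 40 were higher and 0 lower, beside 1.41% and 0.861% of all genes: LRRC59, NANS, SRPRB, GMPPB (0.79 ± 0.21, SE), which makes GDP-mannose, and SPCS2 (1.05 ± 0.31), a subunit of the signal peptidase. Without low 6 the median was 0.12, and in males alone 0.11. Transport from the ER to the Golgi had 24 of 28 members above 0 with a median of 0.17, led by SEC23B and SEC24D (0.49 ± 0.20, SE), both of the outgoing vesicle coat. COPG2, of the coat of returning vesicles, had -0.28 ± 0.12. In males alone this median was 0.08.

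Ribosome biogenesis was the other list whose animal scores did not overlap in the upward direction. Its 6 low animals lay between -0.16 and -0.07 and its 6 high animals between -0.02 and 0.26, with high 6 and high 5 highest. Of 26 members 24 were above 0, with a median of 0.21. GRWD1, GNL3 and NOP2 had an unadjusted p under 0.01 (3 of 26 higher, 0 lower, beside 1.41% and 0.861% of all genes), and 11 of 26 were positive in all 4 combinations of aggressiveness and sex, beside 12.0% of all genes. GNL3, a nucleolar GTP-binding protein, had 361 to 549 in the low group (median 422) and 427 to 1165 in the high group (median 722), and the 5 high animals other than high 4 were above all low animals. NOP2, an rRNA methyltransferase, was separated without overlap, at 444 to 567 and 599 to 778.

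Cytosolic ribosomal proteins themselves showed no such shift: 33 of 57 were above 0, the median was 0.00, and none had an unadjusted p under 0.01 in either direction. Heat shock proteins of the cytosol and mitochondria had a median of 0.05 (22 of 30 above 0). HSPA9, the mitochondrial HSP70, was their sole member without overlap, at 10366 to 10974 and 11058 to 13403 (1 of 30, beside 0.637% of all genes higher). Further HSPA9 probe sets overlapped, with 0.19 ± 0.14 and 0.15 ± 0.16 (SE). Medians were 0.02 for proteasome subunits (24 of 37 above 0), -0.02 for oxidative phosphorylation (23 of 58 above 0) and 0.13 for amino acid response genes with tRNA synthetases (12 of 20 above 0). At an unadjusted p under 0.01 these lists had 1, 0 and 0 members higher and none lower, beside 1.41% and 0.861% of all genes. In the last list the serine synthesis genes PSAT1 (-0.58 ± 0.20, SE) and PSPH (-0.81 ± 0.32) had negative values while VARS, the valyl-tRNA synthetase, had 0.40 ± 0.14.

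**Figure D3:**
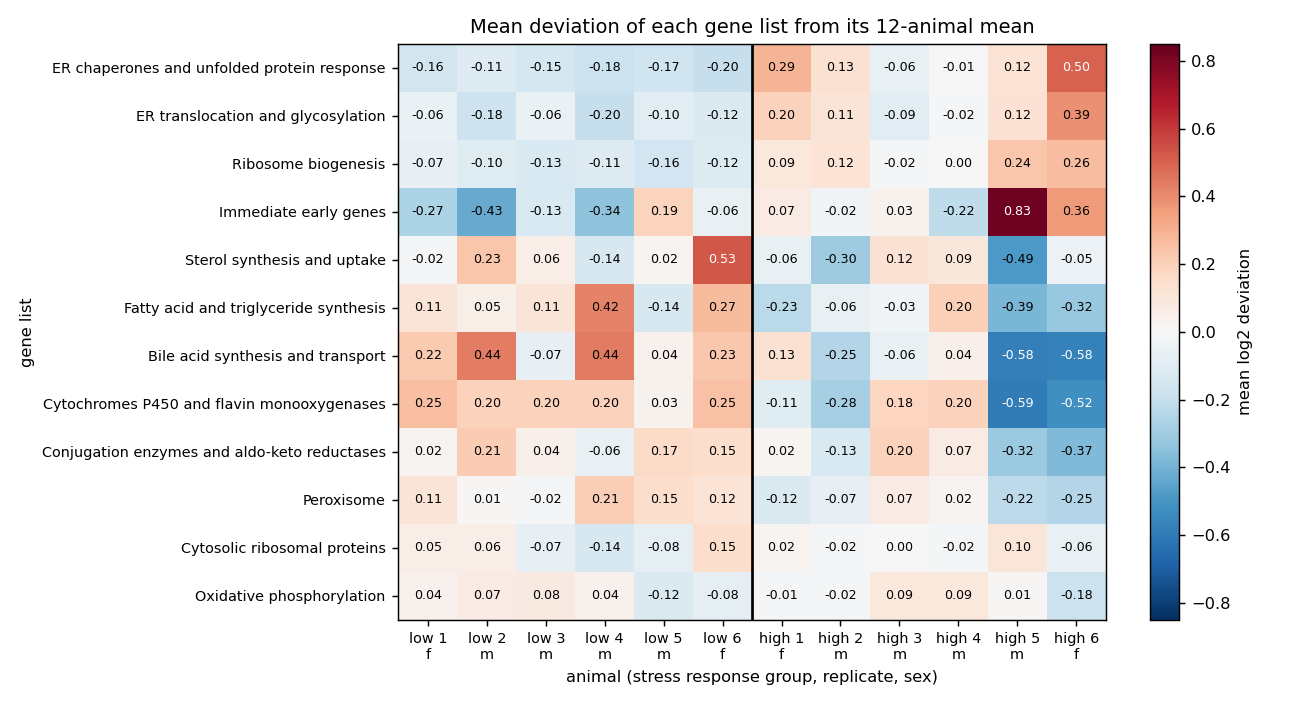
Columns are the 12 animals (f, female; m, male; low group left of the line) and rows 12 gene lists; colour and number give the mean deviation of the list's genes from their 12-animal mean in log2 units. The rows of ER chaperones and of ribosome biogenesis are negative in all 6 low animals and no high animal is as low, and the darkest blue cells of the bile acid, cytochrome P450 and conjugation rows belong to high 5 and high 6.

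Metabolic gene groups had mostly negative differences, and these rested more on single animals. Sterol synthesis and uptake had 12 of 13 members below 0 with a median of -0.26, which ran from -0.38 to -0.20 over the single omissions. FDFT1, squalene synthase, was at 4698 to 7069 in the low group (median 5410). In the high group 5 animals lay at 2480 to 3234 and high 4 at 5499. Its log2 fold change was -0.82 ± 0.20 (SE) and that of SQLE, squalene epoxidase, -0.77 ± 0.22, with adjusted p-values of 0.523. The member above 0 was HSD17B7, a sterol reductase that also converts estrone, at 1.23 ± 0.37 (SE). Its signals were 597 to 2128 in the low and 1054 to 7681 in the high group, and both high females had 4784 and 7681. In males alone the HSD17B7 difference was 0.64, and the median of the list -0.16.

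Fatty acid and triglyceride synthesis had 14 of 20 members below 0 and a median of -0.23. The desaturases FADS2 and FADS1, which make polyunsaturated fatty acids, had -1.50 ± 0.51 and -1.41 ± 0.53 (SE). FADS2 ran from 217 to 1024 in the low and from 48.3 to 574 in the high group, with broad overlap. DGAT2, the last enzyme of triglyceride synthesis, was at 3733 to 7524 (median 5542) and 983 to 4949 (median 3173), a difference of -1.10 ± 0.36 (SE), and 3 of the 6 high animals were below all low animals. FASN, fatty acid synthase, and PLIN2, a lipid droplet coat, had positive values of 0.56 ± 0.29 and 0.74 ± 0.49. Fatty acid oxidation and ketogenesis had 24 of 30 members below 0 with a median of -0.14, led by the thiolase ACAA2 (-0.59 ± 0.19, SE) and the fatty acid carrier FABP1 (-0.47 ± 0.16). Peroxisome genes had 15 of 18 below 0 with a median of -0.15, among them DDO, an oxidase of acidic D-amino acids (-0.94 ± 0.26, SE). In males alone the medians were -0.10 for fatty acid and triglyceride synthesis, -0.04 for fatty acid oxidation, -0.06 for peroxisome genes and -0.16 for the P450 list described next.

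Bile acid synthesis and transport had 8 of 9 members below 0, and its median of -0.43 was the furthest from 0 of the lists described here. ABCB11, the bile salt export pump, was at 254 to 353 in the low group (median 274) and 109 to 275 in the high group (median 178). Its log2 fold change was -0.69 ± 0.20 (SE), and all high animals except high 3 were below all low animals. CYP7A1, which starts bile acid synthesis, had -1.01 ± 0.72 (SE), and that error was close in size to the difference. Of cytochromes P450 and flavin monooxygenases, 18 of 20 were below 0 with a median of -0.24. At an unadjusted p under 0.01 were 0 of 20, beside 1.41% of all genes higher and 0.861% lower. CYP1A1, which oxidises aromatic compounds, was at 180 to 443 in the low and 13.7 to 245 in the high group. Conjugation enzymes and aldo-keto reductases had 18 of 22 below 0, with a median of -0.17. EPHX1, the microsomal epoxide hydrolase, was at 11851 to 15281 and 5626 to 12169 (log2 fold change -0.65 ± 0.20, SE). At an unadjusted p under 0.01, sterol synthesis and uptake had 1 of 13 members higher and 2 lower. Lower were 1 of 20 for fatty acid and triglyceride synthesis, 0 of 30 for fatty acid oxidation and 1 of 18 for peroxisome genes. For bile acids 1 of 9 and for conjugation 2 of 22 were lower, and none of these lists but sterol synthesis had a member higher.

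High 5 and high 6, the arrays with the lowest correlation with the others, had the lowest scores of the bile acid, P450, conjugation, fatty acid synthesis and peroxisome lists. Their P450 scores were -0.59 and -0.52, against -0.28 to 0.20 in the other high animals and 0.03 to 0.25 in the low group. Without both arrays the medians were -0.06 for P450, -0.19 for bile acids, -0.08 for fatty acid and triglyceride synthesis, and -0.05 each for fatty acid oxidation, peroxisome and conjugation. Leaving out the lowest-scoring high animals moves a list toward the low group by construction. Low 6 and low 5 had median correlations of 0.957 and 0.958, close to the 0.957 of high 5, and were not left out together. What sets high 5 and high 6 apart was not tested. Without high 6 alone the bile acid median was -0.25, the P450 median -0.16, fatty acid synthesis -0.15, fatty acid oxidation -0.07 and peroxisome -0.07. Leaving out low 5 or high 4 instead moved the P450 median to -0.40 or -0.39.

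Immediate early genes, which respond to growth factor and stress signals within minutes, had 16 of 19 members above 0 with a median of 0.36. No member had an unadjusted p under 0.01 or separated the groups, and 10 of 19 were positive in all 4 combinations of aggressiveness and sex, beside 12.0% of all genes. IER2 ran from 814 to 1141 in the low and from 1075 to 1806 in the high group, and KLF4, a zinc finger transcription factor, from 27.6 to 101 and from 67.9 to 187. The scores reached 0.83 in high 5 and 0.36 in high 6, against -0.22 to 0.07 in the other high and -0.43 to 0.19 in the low animals. Without both arrays the median was 0.06.

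Genes of glucocorticoid and catecholamine reception and handling were split, with 9 of 18 on each side of 0 and a median of 0.02. SERPINA6, corticosteroid-binding globulin, which carries cortisol in plasma, was at 2901 to 5611 in the low group (median 4625). In the high group 5 animals lay at 1346 to 2412 and high 3 at 5080, and the log2 fold change was -1.06 ± 0.31 (SE). HSD11B2, which inactivates cortisol, had -0.27 ± 0.12. The score of this list was lower in all high than in all low animals, but 0.0060 and 0.0064 as the closest values leave almost no gap. AKR1C1 and SERPINA6 were its members with an unadjusted p under 0.01 (2 of 18 lower, 0 higher, beside 0.861% and 1.41% of all genes). They were also counted in the conjugation and plasma lists. The list's median was -0.08 in males alone and -0.09 without high 5 and high 6. Genes induced by glucocorticoids had a median of 0.11 (13 of 21 above 0), which was 0.032 without low 6, 0.038 without high 6 and 0.025 without both arrays that stood apart. TSC22D3, a glucocorticoid-induced leucine zipper protein, had -0.42 ± 0.18 (SE), and SGK1, an inducible kinase, 0.44 ± 0.20.

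Inducible acute phase proteins had 9 of 16 members above 0 and a median of 0.04, and 3 of them, CRP, LBP and STAT3, had large positive values. CRP, C-reactive protein, was at 4623 to 17292 in the low group (median 5756) and 15868 to 32535 in the high group (median 21527). The log2 fold change was 1.54 ± 0.31 (SE, n = 6 and 6) with an adjusted p of 0.522. The overlap came from low 5, with 17292, and without that animal the difference was 1.82 with an adjusted p of 0.0383. Over the 12 single omissions the adjusted p ran from 0.0383 to 0.845. STAT3, the transcription factor that relays interleukin signals to acute phase genes, was at 2698 to 4287 and 3456 to 7850 (0.61 ± 0.20, SE). HAMP, the iron hormone hepcidin, had -0.41 ± 0.73. Complement, coagulation and carrier proteins of plasma had 31 of 43 members below 0 with a median of -0.04. In males alone the medians were 0.19 for the acute phase list and 0.05 for the plasma list.

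LBP, which carries bacterial lipopolysaccharide, was singled out after its values were seen, because the females of the groups lay far apart. In the males it was at 6947 to 8612 in the low and 8267 to 9440 in the high group. The 2 low females had 2610 and 2622 and the 2 high females 12075 and 15470. In the model with a term for stress response by sex, the LBP difference was 2.38 ± 0.20 (SE) in females and 0.22 ± 0.14 in males. The difference between these had an adjusted p of 0.0772, the smallest of the array, and did not pass. A second LBP probe set with signals of 26.5 to 156 gave 1.17 ± 0.47 in females and 0.07 ± 0.33 in males (adjusted p = 0.816).

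The same model found 0 of 15999 probe sets (0.00%) with a sex-dependent difference at an adjusted p under 0.05, 218 at an unadjusted p under 0.01 and 1025 under 0.05. Within females 1 of 15999 (0.00625%) passed, LBP (adjusted p = 0.00449), with 409 at an unadjusted p under 0.01 and 1450 under 0.05. Within males 0 of 15999 (0.00%) passed, with 148 at an unadjusted p under 0.01 and 820 under 0.05. Only 2 females stood in each group. All 15 named genes that were higher without overlap had larger differences in females than in males (limma adjusted p of 0.657 to 0.990 for the difference between the sexes). Of the 8 lower genes 6 had the larger difference in females, and AKR1C1 and MARVELD3 had it in males (adjusted p of 0.893 to 0.987). These genes were picked by their separation in the same animals, and the same 2 high females entered each, so these counts are no test. Over all genes, with the sign of the difference kept, 46.5% had the higher value in females. CRELD2 had 1.57 in females and 0.54 in males, MANF 1.13 and 0.48, SDF2L1 1.18 and 0.37, and HSD17B7 2.41 and 0.64. The ER chaperone list had a median of 0.51 in females and 0.29 in males, and 18 of 20 members were larger in females. Transport from the ER to the Golgi had 0.40 and 0.08. Cell type markers had medians in females and males of 0.47 and 0.08 for stellate cells, -0.44 and 0.11 for lymphocytes, -0.23 and 0.09 for endothelial cells and -0.24 and 0.16 for hepatocytes. They were -0.03 and 0.34 for neutrophils, -0.17 and 0.17 for erythroid cells, -0.09 and -0.04 for Kupffer cells and 0.22 and 0.13 for cholangiocytes. Females of a group could differ widely: the stellate score was 0.49 in high 1 and -0.16 in high 6. The lymphocyte score was -0.23 in low 1 and 0.57 in low 6. The part of cell types in the differences by sex was not tested.

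In the lists of glucose, amino acid and redox genes, which were centred near 0, no member passed the adjusted threshold. Gluconeogenesis and glucose handling had a median of -0.08 (15 of 26 below 0), but 0.010 without high 6, 0.0045 without high 5 and high 6, and 0.023 in males alone. Its members included FBP2 as above and INSR, the insulin receptor, the latter at 45.7 to 94.5 in the low and 77.3 to 103 in the high group. A second INSR probe set had -0.02 ± 0.19 (SE). Urea cycle and amino acid catabolism also had a median of -0.08 (-0.02 in males alone and -0.02 without high 5 and high 6), with AMT of the glycine cleavage system at -0.76 ± 0.22 and ARG1, the arginase that releases urea, at 0.46 ± 0.14. CTH, which makes cysteine, had 0.47 ± 0.15. Antioxidant genes and metallothioneins had a median of -0.04. There PON3, a lactonase of lipoproteins, was at 7748 to 14573 in the low and 3337 to 7762 in the high group, and only high 4 reached the low range. SELENBP1, a selenium-binding oxidase, had 2397 to 3678 and 881 to 2729.

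Cell cycle and DNA repair genes had 18 of 25 members above 0 with a median of 0.21, and without high 1, whose score of 0.54 was the highest, the median was 0.07. CCNB1, a cyclin of mitosis, reached 302 in high 1 against 1.39 to 97.3 in the low group. Interferon-stimulated genes had 16 of 22 above 0 and a median of 0.13. MX1, an antiviral GTPase, was at 446 to 2173 and 948 to 2995, and without high 2 the median of the list was 0.05.

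Markers of the cell types a liver sample can hold were checked beside these lists. Medians of the log2 fold change were 0.07 for hepatocytes (11 markers measured), -0.06 for Kupffer cells (7), 0.05 for endothelial cells (9), 0.14 for stellate cells (9), 0.13 for cholangiocytes (7), 0.17 for neutrophils (7), 0.01 for lymphocytes (10) and 0.10 for erythroid cells (4). No marker of these lists separated the groups without overlap. At an unadjusted p under 0.01, 1 of 7 Kupffer cell markers was higher and 1 lower. The same held for 1 and 1 of 7 cholangiocyte markers, beside 1.41% and 0.861% of all genes. Markers of the other cell types had none. Summed signals of the hepatocyte markers were 323720 to 471520 in the low and 362540 to 413510 in the high group, those of the neutrophil markers 3401 to 5793 and 3690 to 5824. Summed cholangiocyte markers were 12365 to 17257 in the low and 14232 to 35111 in the high group. Their part in the differences above was not tested.

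The consistency over animals was measured by leaving each animal out of the fit. Probe sets with an unadjusted p under 0.01 in the other 11 animals were taken with their sign, and the left-out animal was placed relative to the midpoint of the groups for its aggressiveness and sex. Only 5 of 12 animals lay on the side of their own group. High 6 and high 5 did so clearly, with mean signed deviations of 0.30 and 0.18 log2 units, and low 2, low 4 and low 6 by 0.03 or less. High 1, high 2, high 3 and high 4 lay on the low side, at -0.15, -0.11, -0.19 and -0.18, and low 5, the farthest low animal, lay on the high side at 0.10. The mean distance from the midpoint to a group in the fits was 0.33 to 0.37. Leaving an animal out moves the mean of its group away from it and favours probe sets on which it deviates, so that these values lean against the animal's own side by construction.

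**Figure D4:**
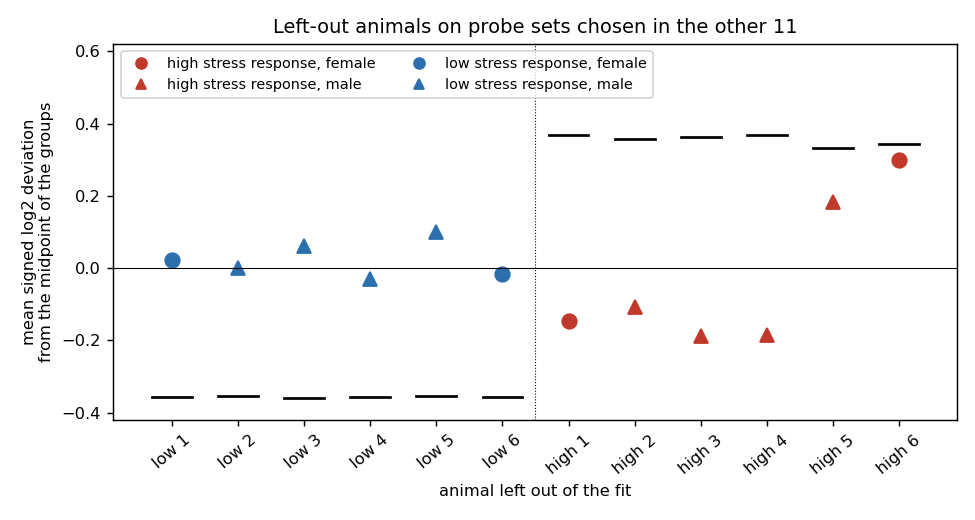
Each point is an animal left out of the fit, placed by the mean signed log2 deviation over the probe sets with an unadjusted p under 0.01 in the other 11 animals; 0 is the midpoint of the groups and black bars mark the mean position of the animal's own group. High 6 and high 5 lie nearest to their bar, and the other 10 animals lie near or across the midpoint.

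The probe sets without overlap gave another order of animals. Of these 86 probe sets, high 6 was the animal farthest from the low group in 36, high 1 in 15, high 5 in 13, and high 2, high 3 and high 4 in 7, 8 and 7. Among low animals, low 6 was the farthest in 26 and low 5 in 21. High 1 and low 5, both across the midpoint when left out, were thus among the most extreme animals of their groups here. Without high 6 the number of probe sets with an unadjusted p under 0.01 was 154 in all, without high 5 it was 199, and without high 4 it was 356. Without high 5 and high 6 together it was 135, with 77 higher and 58 lower.

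Aggressiveness was the remaining factor over which consistency could be read. An interaction of stress response with aggressiveness was found for 0 of 15999 probe sets (0.00%) at an adjusted p under 0.05, with 0.567 as the smallest, 104 at an unadjusted p under 0.01 and 619 under 0.05. All 23 genes without overlap had by construction the same sign in each of the 4 combinations of aggressiveness and sex. Over all genes 698 were positive (12.0%) and 525 negative (9.04%) in all 4. For CRELD2 the differences were 1.30 and 1.84 in females of low and high aggressiveness, and 0.73 and 0.35 in males. For CRP they were 1.03 and 2.47 in females and 1.01 and 1.85 in males.

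**Figure D5:**
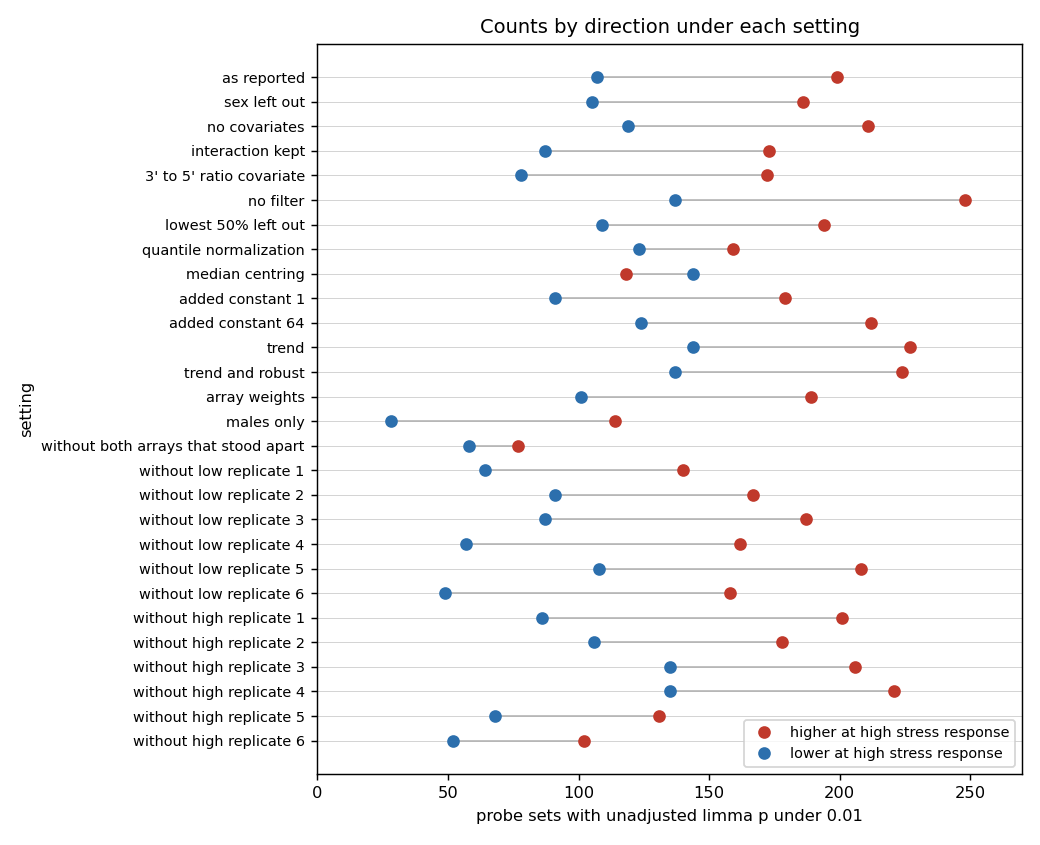
For each setting, the red point gives the number of probe sets higher and the blue point the number lower at high stress response with an unadjusted limma p under 0.01; the first row is the analysis as reported (199 and 107). Red lies right of blue in all rows except median centring (118 and 144), and the sum of both counts is lowest without both arrays that stood apart (135), in males only (142) and without high 6 (154).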

How the data were processed

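The authors deposited 1 table of probe set signals, linear intensity values made with GCOS 1.1.1 per the submitters' processing notes; summarisation and scaling are not given in the sources used here. The 2% trimmed mean of the deposited intensity values was 500.2 on every array, so arrays had been scaled. Of 24123 probe sets, 124 controls and the third with the lowest mean log2 value were left out. The remaining 15999 were modelled as log2(signal + 16) with limma 3.58.1 (R 4.3.3) on stress response, aggressiveness and sex (8 residual degrees of freedom), and p-values were adjusted over all 15999. Fold changes on this scale understate differences of dim probe sets. The fit was tested on simulated data. Figures used matplotlib 3.10.9 in Python 3.11.15.

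Of all probe sets, 10099 had 1 symbol in the array's table, of which 9989 were found in a RefSeq table by gene ID with 0 symbols changed, 198 had several and 13826 none. A gene was represented by its tested probe set with the highest mean. Named are, in each direction, up to 15 genes without overlap and the largest difference, 3 members of each described list with the smallest p, and 10 abundant genes; the sex marker, DNAJB11, HSPA5, DNAJC3, PPP1R15A, ERO1A, XBP1, GMPPB, SPCS2, FASN, PLIN2, CYP7A1, HAMP and CTH were chosen after their values were seen. The members and 43 lists were chosen with earlier results of these data known, and the 26 lists described were picked after their medians were seen. List counts and scores carry no test. Except for the filter settings, alternatives used the same 15999 probe sets. The stress response by sex term was added after the data were seen. No sequences were used.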

Additional observations from a re-analysis of the deposited data

Results flagged for a closer look

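Outlying animals were looked for in 226 sets of 6 animals, the high and the low group of 87 genes and 26 lists, by the gap of the extreme animal divided by the range of its group, against Dixon's limit for 6 values. Chance alone marks about 1 in 20 such groups, and 13 of 226 were marked. Genes in which high 6 stood off within the high group were SRPRB (0.821; 3035 against 1533 to 1733), SELENBP1 (0.739; 881 against 2033 to 2729) and ITM2B (0.697; 13250 against 15520 to 16624). High 4 stood off for FOSL1 (0.685; 122 against 53.9 to 70.6) and for FDFT1 (0.667; 5499 against 2480 to 3234). High 1 was the low extreme for FANCL (0.851; 201 against 258 to 270), and high 2 the high extreme for RPL26 (0.649; 123 against 48.0 to 68.1). In the low group, low 5 stood off for the list of cytochromes P450 and flavin monooxygenases (0.744; a score of 0.03 against 0.20 to 0.25), for EPHX1 (0.645; 11851 against 13962 to 15281) and for FMO5 (0.636; 1274 against 629 to 814). Low 6 stood off for SDF2L1 (0.712; 1878 against 2811 to 3309) and for ZDHHC3 (0.641; 1178 against 1144 to 1156), and low 2 for NAT10 (0.725; 90.0 against 136 to 158).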

How the results depend on the processing

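Of the 87 named genes other than the 10 abundant ones, none changed sign in the 2600 values under alternatives, and 3 values passed an adjusted p of 0.05 that had not: CRP without low 5 (1.82), FBP2 without high 4 (-1.34) and LBP within females (2.38). In this balanced design, leaving out covariates, keeping the interaction, and the trend and filter settings cannot change a gene's fold change. These genes were also picked from the same data by separation or small p, so their constant sign is no test. The abundant genes lay near 0, and 6 of 10 changed sign in 36 of 280 values; FGG moved to 0.50 with its probe sets averaged. The count of probe sets passing was 0 to 1 when each animal was left out. At an unadjusted p under 0.01, leaving out single animals gave 102 to 221 higher and 49 to 135 lower; median centring gave 118 higher, males only 114 higher and 28 lower, and the analysis without both arrays that stood apart 77 higher and 58 lower. Counts without overlap were 33 higher and 38 lower after median centring, 402 and 148 in males only, 98 and 58 without both arrays, and 68 to 147 higher and 28 to 70 lower without single animals, where fewer animals overlap less by construction. Medians that moved by more than the spread between animals were cytosolic ribosomal proteins (0.090) and glucose handling (0.023) in males, glucocorticoid handling in males (-0.075), without both arrays (-0.088) and without single animals (-0.073 to 0.012), and immediate early genes without both arrays (0.056). With a stress response by sex term, medians in males were 0.090, 0.023 and -0.075 for the same 3 lists. In females they were 0.51 for ER chaperones, 0.31 for ER translocation, 0.40 for ER to Golgi transport, -0.14 for cytosolic ribosomal proteins, -0.12 for oxidative phosphorylation, -0.31 for fatty acid oxidation, -0.25 for plasma proteins, -0.14 for acute phase proteins, -0.18 for glucose handling and -0.095 for glucocorticoid handling. The cause of these shifts was not tested. No paired analysis was possible because the labels give no replicate numbers. The number of arrays limits the precision.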
